A study of Mus musculus with 9 samples.

Results

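The 35 genes described here encode the enzymes of fatty acid oxidation and the proteins of the lipid droplet, together with the fatty acid activating enzymes and the PPAR receptors. They were picked by gene symbol from a list of 35 names. The rule itself uses no measured value, but the list was drawn up with earlier results of these data known. All 35 were found among the 46517 genes listed for each sample. Their transcripts were measured by bulk RNA sequencing in 9 duodenal organoid cultures from wild-type C57BL/6J mice, 3 each transduced with Ad-GFP, Ad-hHIF2 or Ad-hHIF1. Ad-GFP is an adenovirus with a CMV-driven green fluorescent protein and served as the control. Ad-hHIF2 and Ad-hHIF1 carry human HIF2 and HIF1 alleles whose prolines were replaced by alanine in a pair of positions, so that VHL cannot mark the protein for degradation. Every culture received 50 viral particles per cell after dissociation to single cells, and RNA was taken about 72 hours later. All groups shared the L-WRN conditioned medium, which supplies Wnt3a, R-spondin 3 and noggin, together with the ROCK inhibitor Y27632, the TGF-β receptor inhibitor SB431542 and nicotinamide. By the paper's methods duodenal organoids were kept at oxygen below that of room air, while its other cell lines grew in standard incubators. The control values are therefore not values at ambient oxygen. The promoter that drives the HIF transgenes is not given in the sources used here. Replicates are numbered 1, 3 and 4 in each group, and values below follow that order. The labels do not say whether they came from separate animals, so the p-values measure only the spread between these cultures.

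Long-chain fatty acids enter oxidation only after an acyl-CoA synthetase has activated them and the carnitine shuttle has carried them into the mitochondrion, where the enzymes of the spiral shorten them step by step and pass electrons to the electron transfer flavoprotein. Fatty acids that are not burned are esterified to triglyceride and stored in lipid droplets, whose surface is coated by perilipins and whose triglyceride is released by lipases. The PPAR receptors are fatty acid sensing transcription factors that control many of these genes, and in the small intestine the same machinery serves the handling of dietary fat. HIF1 and HIF2 are the oxygen-labile transcription factors of the hypoxia response, and they bind DNA at a short core written RCGTG.

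The promoters of 5 members are shown: the gene with the largest rise (Acsl5), one that fell (Plin2), a lipase that rose (Lipe), a known hypoxia-responsive droplet gene (Hilpda) and a gene next to another member (Hadhb). Each runs from 250 bases before to 30 bases after the RefSeq start site on GRCm38.p6, 5′ to 3′ on the gene's strand. Capitals mark ACGTG or GCGTG, the 2 forms of the core, on either strand, so that CACGC is GCGTG read on the other strand and CACGTG holds ACGTG on both strands. Lipe and Hilpda each had 2 starts in the table, and the one shown was taken because it holds ACGTG, which the other does not. Acsl5 lies at chr19:55253119-55253398 (+), Plin2 at chr4:86670030-86670309 (-), Lipe at chr7:25395958-25396237 (-), Hilpda at chr6:29272376-29272655 (+) and Hadhb at chr5:30155003-30155282 (+).
Acsl5: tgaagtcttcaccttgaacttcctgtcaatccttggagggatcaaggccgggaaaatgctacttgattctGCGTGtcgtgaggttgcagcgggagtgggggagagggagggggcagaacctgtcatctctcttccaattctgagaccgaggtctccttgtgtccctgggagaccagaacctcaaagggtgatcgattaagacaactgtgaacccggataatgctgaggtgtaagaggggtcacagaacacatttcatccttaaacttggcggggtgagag
Plin2: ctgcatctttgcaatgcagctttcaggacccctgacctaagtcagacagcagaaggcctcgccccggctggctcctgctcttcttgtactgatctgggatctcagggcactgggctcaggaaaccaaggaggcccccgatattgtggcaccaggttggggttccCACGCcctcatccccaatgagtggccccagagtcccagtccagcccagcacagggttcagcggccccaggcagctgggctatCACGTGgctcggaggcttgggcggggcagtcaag
Lipe: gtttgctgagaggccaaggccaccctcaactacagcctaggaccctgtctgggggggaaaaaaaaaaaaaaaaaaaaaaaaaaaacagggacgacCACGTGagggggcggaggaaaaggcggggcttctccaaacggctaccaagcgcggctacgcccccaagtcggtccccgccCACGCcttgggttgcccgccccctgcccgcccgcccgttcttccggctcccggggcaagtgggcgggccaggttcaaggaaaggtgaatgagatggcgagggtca
Hilpda: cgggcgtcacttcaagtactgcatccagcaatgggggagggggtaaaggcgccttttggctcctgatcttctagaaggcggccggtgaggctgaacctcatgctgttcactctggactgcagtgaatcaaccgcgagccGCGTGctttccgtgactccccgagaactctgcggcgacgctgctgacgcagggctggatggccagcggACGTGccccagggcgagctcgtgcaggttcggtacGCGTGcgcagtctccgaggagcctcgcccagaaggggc
Hadhb: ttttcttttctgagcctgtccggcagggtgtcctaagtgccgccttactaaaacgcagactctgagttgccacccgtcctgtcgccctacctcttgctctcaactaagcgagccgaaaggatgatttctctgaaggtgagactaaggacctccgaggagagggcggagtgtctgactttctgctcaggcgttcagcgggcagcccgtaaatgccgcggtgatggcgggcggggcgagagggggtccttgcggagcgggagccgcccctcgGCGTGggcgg

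ACGTG was present in the promoters of Plin2, Lipe and Hilpda and absent from those of Acsl5 and Hadhb, which held GCGTG. The table of promoters held 31 of the 35 members, over windows of 250 bases before to 50 bases after the start, and some members had several starts, which made 36 promoters. ACGTG occurred in 5 of the 36 (those of Acadvl, Hilpda, Lipe, Plin2 and Ppard) and GCGTG in 22. Over all 32851 promoters of the same length, 19.6% held ACGTG and 32.4% held GCGTG. The perfect form of the PPAR response element was also searched on both strands: an exact direct repeat of the nuclear receptor half-site with a single free base between. It was found in 0 of the 36 and in 0.0396% of all promoters. At so low a share 0 of 36 says nothing about these genes, and imperfect forms were not searched. These matches describe the sequence only. Hadha and Hadhb start head to head on chromosome 5, with 272 bases between their start sites.

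The library totals ran from 21722618 to 51119041 expected counts, which are RSEM's estimates of reads per gene. The 7SL RNA genes took 12.5% to 21.8% of the counts, and satellite sequence took 15.96% of the library of Ad-hHIF1 replicate 3 against 0.433% to 4.28% in the others. Levels are given as CPM, which are counts scaled to a common library size with TMM factors. Expected counts were fractional in at least 1 sample for 11 members (Slc25a20, Acadvl, Hadhb, Echs1, Eci2, Acaa1a, Etfb, Etfdh, Acsl3, Plin2 and Plin3), where reads were divided between this gene and another. Epas1, the mouse gene for HIF2, stood at 1.64, 1.47 and 2.20 CPM with Ad-GFP and at 758, 604 and 654 CPM with Ad-hHIF2, a log2 fold change of 8.60. Hif1a stood at 198, 210 and 251 CPM with Ad-GFP and at 309, 319 and 299 CPM with Ad-hHIF1, a log2 fold change of 0.49 (adjusted p = 0.486 in edgeR and 5.76e-05 in DESeq2). Reads of the human transgenes that were counted under the mouse genes cannot be told apart from reads of the mouse genes. The 7 general epithelial markers summed to 3251–3572 CPM with Ad-GFP, 3444–3772 with Ad-hHIF2 and 3356–3763 with Ad-hHIF1, almost all of it keratins and Cdh1. Defining intestinal markers were at or near 0: Fabp1, Sis, Olfm4, Lyz1, Tff3 and Defa24 each averaged at most 0.10 CPM in every group, while Vil1 averaged 4.36 CPM and Muc2 5.86 CPM with Ad-GFP.

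In the HIF2-overexpressing organoids 14 of the genes rose and 2 fell. They were Cpt1a, Cpt2, Acadl, Acadm, Acads, Acadvl, Hadha, Etfa, Etfdh, Acsl4, Acsl5, Ppard, Plin3 and Lipe, which rose, and Plin2 and Dgat2, which fell. Most rises were small. The median log2 fold change of the 34 members that could be tested was 0.21, against -0.01 over all 14987 genes tested. Of these 34 members only Acsl5 changed at least 2-fold. Rise and fall here mean that edgeR gave an adjusted p under 0.05. By that rule 15.9% of all genes tested rose and 13.6% fell, while 2.9% rose and 3.83% fell at least 2-fold. In 16 of the 35 members the whole Ad-hHIF2 group stood above the control group and in 4 below it, against 23.4% and 22.4% of all genes tested. The 4 include Cd36, which was not tested here and is not read as a result. The plot of fold changes by role shows how the members are spread.

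**Figure D1:**
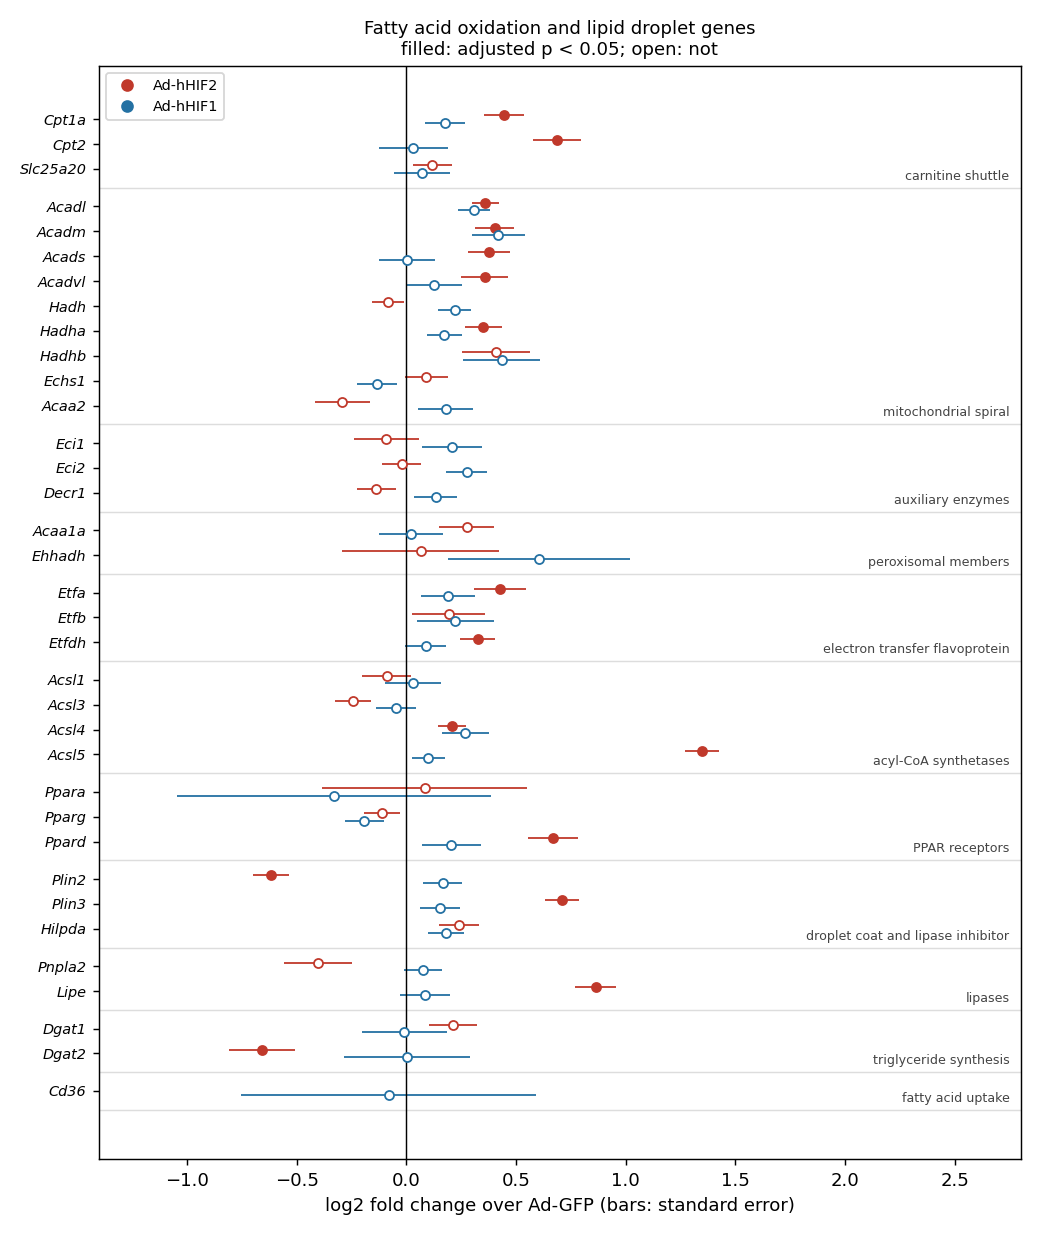
Log2 fold change over Ad-GFP (x axis) of the 35 members, grouped by role, with Ad-hHIF2 in red and Ad-hHIF1 in blue. Bars are standard errors from edgeR (n = 3 per group), and filled points passed an adjusted p of 0.05. Acsl5 stands apart at 1.35 with Ad-hHIF2, Plin2 and Dgat2 lie to the left of 0, and no blue point is filled. Cd36 has no red point because it was not tested against Ad-GFP with Ad-hHIF2.

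The count of 14 depended on single libraries: it was 8 without Ad-hHIF2 replicate 3, 9 without Ad-GFP replicate 3 and 11 to 13 without any other, and the count of 2 became 4 without Ad-GFP replicate 1, where Acsl3 and Cd36 were counted as well, Cd36 only because it passed the count filter there. In limma on log2(TPM + 1), where short RNA genes carried 90.2% to 94.8% of the TPM, 2 members rose (Acsl5 and Plin3) and 0 fell.

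Acsl5, which makes acyl-CoA from long-chain fatty acids in the intestinal epithelium, carried the largest change among the members tested. It was measured at 91.8, 97.2 and 85.6 CPM with Ad-GFP, 234, 234 and 229 CPM with Ad-hHIF2, and 99.7, 94.2 and 101 CPM with Ad-hHIF1. The Ad-hHIF2 samples stood far above all others and close to each other, while the Ad-hHIF1 samples overlapped the control. The log2 fold change with Ad-hHIF2 was 1.35 ± 0.0759 (SE), a 2.54-fold rise, with an adjusted p of 7.23e-06 in edgeR. Acsl5 passed the threshold in every alternative and with any one sample left out.

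The other long-chain synthetases did not share this size of change. Acsl4, which prefers arachidonic acid, stood at 57.3, 58.4 and 54.7 CPM with Ad-GFP, 66.1, 65.6 and 64.6 CPM with Ad-hHIF2 and 79.8, 60.0 and 65.6 CPM with Ad-hHIF1. It rose with Ad-hHIF2 by 0.21 ± 0.0643 on the log2 scale (adjusted p = 0.0397 in edgeR), but it missed the threshold when any one of the 6 samples was left out (adjusted p from 0.0703 to 0.103), without a count filter (0.0795) and with all 9 samples in a single fit (0.153). Acsl3, a synthetase of the endoplasmic reticulum and of droplets, was at 29.4, 33.5 and 34.99 CPM with Ad-GFP and at 28.9, 27.4 and 26.0 CPM with Ad-hHIF2, with a log2 fold change of -0.24 and an adjusted p of 0.0589 in edgeR. Every Ad-hHIF2 sample lay below every control in Acsl3, and without Ad-GFP replicate 1 the adjusted p was 0.0366. Scaled by library totals its sign turned, with adjusted p = 0.95 in edgeR. Acsl1 had a log2 fold change of -0.09 (adjusted p = 0.583).

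Per length, Acsl5 was already the leading synthetase. Of the summed CPM per kilobase of the 4 genes, Acsl5 made up 50.8% to 54.1% with Ad-GFP, 74.2% to 74.5% with Ad-hHIF2 and 50.5% to 54.9% with Ad-hHIF1. The share of Acsl3 was 19.1% to 22.1% with Ad-GFP and 9.20% to 9.68% with Ad-hHIF2, that of Acsl4 20.2% to 20.9% and 13.0% to 13.1%, and that of Acsl1 5.76% to 6.88% and 3.02% to 3.50%. The shares of the other 3 were lower in every Ad-hHIF2 sample, and since shares sum to the whole this includes the rise of Acsl5 itself.

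Among the droplet proteins the 2 perilipins moved in opposite directions. Plin2, the perilipin that coats droplets in most non-adipose cells, was the most abundant member per length, at 518 CPM per kilobase in the control. It was measured at 652, 644 and 578 CPM with Ad-GFP, 401, 419 and 397 CPM with Ad-hHIF2 and 692, 667 and 743 CPM with Ad-hHIF1. The Ad-hHIF2 samples were all below, and the Ad-hHIF1 samples all above, the control. The log2 fold change with Ad-hHIF2 was -0.62 ± 0.0824, to 0.652 of the control, with an adjusted p of 0.000879 in edgeR. Scaled by library totals alone, which moved the median of all genes by 0.26, Plin2 had a log2 fold change of -0.36 and an adjusted p of 0.145, and on log2(TPM + 1) it had -0.27 and 0.665 in limma.

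Plin3, a perilipin that is mostly cytosolic and joins young droplets, was at 74.5, 76.4 and 70.2 CPM with Ad-GFP, 115, 127 and 119 CPM with Ad-hHIF2 and 85.8, 72.6 and 87.9 CPM with Ad-hHIF1. The Ad-hHIF2 samples lay above all other samples, and the log2 fold change was 0.71 ± 0.0764, a 1.64-fold rise (adjusted p = 0.000272 in edgeR), which passed the threshold in every alternative. The share of Plin3 in the summed CPM per kilobase of both perilipins was 6.48% to 6.73% with Ad-GFP, 15.6% to 16.6% with Ad-hHIF2 and 5.79% to 6.99% with Ad-hHIF1. Plin2 remained the greater part in all 9 samples.

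**Figure D2:**
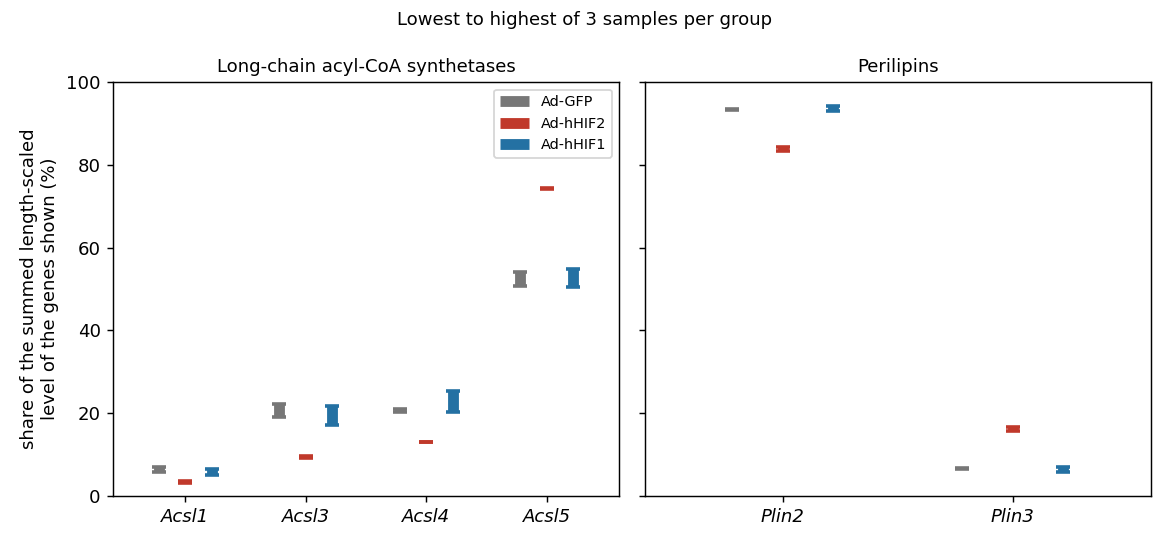
Share in percent (y axis) of the summed length-scaled level that each long-chain acyl-CoA synthetase (left) or perilipin (right) made up, drawn from the lowest to the highest of 3 samples per group. Acsl5 took 74.2% to 74.5% with Ad-hHIF2 against 50.8% to 54.1% with Ad-GFP, and Plin3 took 15.6% to 16.6% against 6.48% to 6.73%.

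Hilpda, a hypoxia-inducible droplet protein that inhibits adipose triglyceride lipase, was at 197, 189 and 177 CPM with Ad-GFP, 203, 242 and 218 CPM with Ad-hHIF2 and 202, 210 and 226 CPM with Ad-hHIF1. All samples of both HIFs lay above all controls. The log2 fold change with Ad-hHIF2 was 0.24 ± 0.092 (95% interval 0.03 to 0.45, adjusted p = 0.0833 in edgeR), and without Ad-hHIF2 replicate 1 it was 0.32 with an adjusted p of 0.0472. It also passed in DESeq2 (0.0341) and scaled by library totals (0.0467), but without Ad-hHIF2 replicate 3 it had 0.17 and an adjusted p of 0.25 in edgeR.

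The 2 lipases also differed. Lipe, hormone-sensitive lipase, which cleaves diacylglycerol, was measured at 10.4, 9.17 and 9.15 CPM with Ad-GFP, 16.8, 17.3 and 18.01 CPM with Ad-hHIF2 and 9.57, 10.4 and 10.5 CPM with Ad-hHIF1. The Ad-hHIF2 samples formed a group well above the rest. The rise was 0.86 ± 0.0941 on the log2 scale, or 1.82-fold (adjusted p = 0.000293 in edgeR), and was lost only on log2(TPM + 1) (0.54, adjusted p = 0.0864 in limma). Pnpla2, adipose triglyceride lipase, was at 21.9, 21.2 and 19.5 CPM with Ad-GFP and at 20.3, 14.0 and 13.0 CPM with Ad-hHIF2, so that replicate 1 overlapped the control. Its log2 fold change was -0.40 ± 0.154 (adjusted p = 0.0816 in edgeR), and without Ad-hHIF2 replicate 1 it was -0.61 with an adjusted p of 0.00583. It also passed without a count filter (0.00639) and with a replicate block (0.0253) in edgeR, and in DESeq2 (0.0472). Scaled by library totals it had -0.11 (0.701), on log2(TPM + 1) and log2(TPM + 0.1) its sign turned, with 0.05 and 0.02 (adjusted p 0.917 and 0.987 in limma), and without Ad-hHIF2 replicate 3 its adjusted p was 0.242 in edgeR.

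Dgat1 and Dgat2 carry out the last step of triglyceride synthesis. Dgat2 was at 6.64, 5.93 and 5.80 CPM with Ad-GFP, 3.59, 4.34 and 3.69 CPM with Ad-hHIF2 and 6.87, 3.42 and 8.004 CPM with Ad-hHIF1. It fell with Ad-hHIF2 by 0.66 on the log2 scale, to 0.635 of the control (adjusted p = 0.0117 in edgeR), while the Ad-hHIF1 samples were widely spread. Without Ad-hHIF2 replicate 1 the adjusted p was 0.0506, scaled by library totals it was 0.201, and with all 9 samples in a single fit it was 0.0942. On log2(TPM + 1) and log2(TPM + 0.1) the log2 fold change of Dgat2 was only -0.05 and -0.16 (adjusted p 0.816 and 0.798 in limma). Dgat1 was at 6.83, 7.26 and 6.60 CPM with Ad-GFP and at 7.66, 8.48 and 7.79 CPM with Ad-hHIF2, without overlap but with an adjusted p of 0.182 in edgeR.

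**Figure D3:**
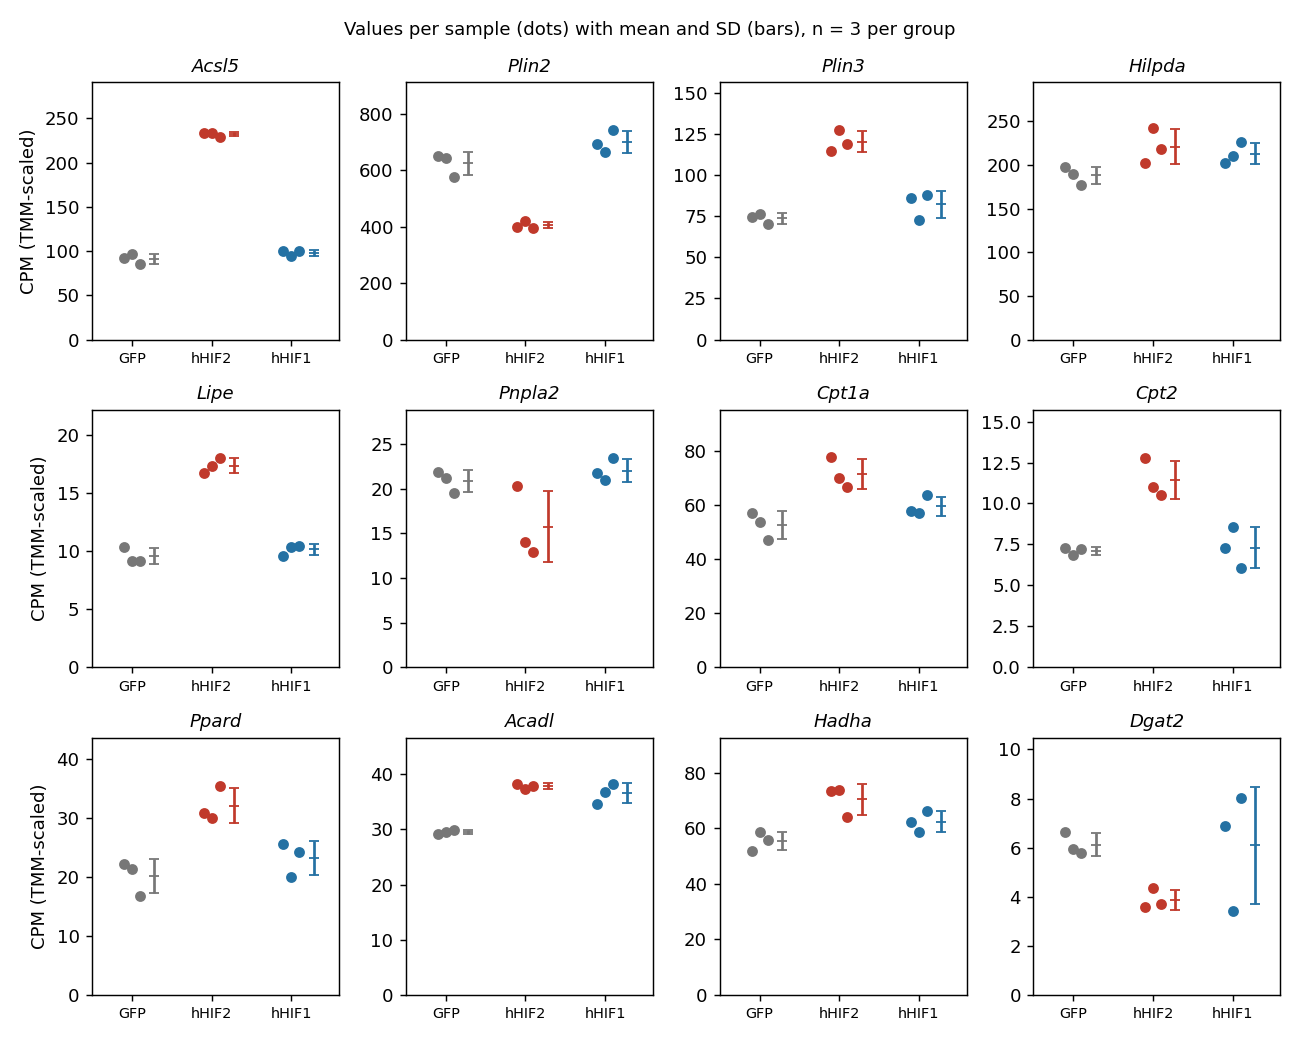
CPM (y axis, from 0) of 12 members in each of the 9 samples, with dots for samples in the order of replicates 1, 3 and 4 and bars for the mean and SD (n = 3 per group). Acsl5, Plin3 and Lipe stand higher and Plin2 lower in every Ad-hHIF2 sample than in any other sample.

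The carnitine shuttle rose at both of its transferases. Cpt1a, which makes acylcarnitine at the outer membrane and limits the rate of entry, was at 57.1, 53.8 and 47.2 CPM with Ad-GFP, 77.9, 70.0 and 66.8 CPM with Ad-hHIF2 and 58.1, 57.1 and 63.8 CPM with Ad-hHIF1. Cpt2, which turns acylcarnitine back to acyl-CoA inside, was at 7.27, 6.85 and 7.25 CPM, then 12.8, 11.03 and 10.5 CPM and then 7.30, 8.54 and 6.06 CPM. In both genes the Ad-hHIF2 samples lay above all controls, with log2 fold changes of 0.45 ± 0.0911 (1.36-fold, adjusted p = 0.00726 in edgeR) and 0.69 ± 0.109 (1.61-fold, adjusted p = 0.00215). Slc25a20, the carrier that exchanges acylcarnitine for carnitine, had a log2 fold change of 0.12 with overlapping groups (adjusted p = 0.339).

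Of the 9 enzymes of the mitochondrial spiral, 5 rose with Ad-hHIF2 and 0 fell, beside 15.9% and 13.6% of all genes. The 4 acyl-CoA dehydrogenases, which take fatty acids of different chain length through the first oxidation, all rose by a similar amount. Acadl was at 29.3, 29.5 and 29.9 CPM with Ad-GFP, 38.3, 37.3 and 37.9 CPM with Ad-hHIF2 and 34.7, 36.8 and 38.3 CPM with Ad-hHIF1, and Acadm at 33.7, 37.6 and 29.7 CPM, then 44.3, 46.3 and 42.8 CPM and then 39.0, 50.7 and 45.7 CPM. In both genes the samples of either HIF lay above all controls. The log2 fold changes with Ad-hHIF2 were 0.36 ± 0.0615 for Acadl (adjusted p = 0.00308 in edgeR), 0.40 ± 0.09 for Acadm (0.0107), 0.38 ± 0.0964 for Acads (0.0192) and 0.36 ± 0.107 for Acadvl (0.0359).

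The calls of Acads and Acadvl were the least firm of these. Acads missed the threshold without Ad-GFP replicate 3, Ad-hHIF2 replicate 3 or Ad-hHIF2 replicate 4 (adjusted p 0.0711, 0.0788 and 0.0552 in edgeR), and Acadvl without Ad-GFP replicate 3 or 4 or Ad-hHIF2 replicate 1 or 3 (0.111, 0.0771, 0.0593 and 0.13) or with all 9 samples in a single fit (0.0646).

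Hadha and Hadhb encode the alpha and beta subunits of the mitochondrial trifunctional protein, and the genes lie head to head as described above. Hadha was at 51.9, 58.6 and 55.7 CPM with Ad-GFP, 73.6, 73.8 and 63.9 CPM with Ad-hHIF2 and 62.3, 58.6 and 66.3 CPM with Ad-hHIF1. Hadhb was at 20.1, 17.6 and 12.7 CPM, then 22.9, 24.5 and 19.9 CPM and then 23.4, 25.8 and 19.4 CPM. Hadha rose with Ad-hHIF2 by 0.35 ± 0.0832 (adjusted p = 0.0137 in edgeR), and it missed the threshold without Ad-GFP replicate 1 (0.0542) or Ad-hHIF2 replicate 3 (0.0537). Hadhb had a similar log2 fold change of 0.41 but a wider spread and overlapping groups (SE 0.155, adjusted p = 0.0792 in edgeR), and it passed without Ad-GFP replicate 1 (0.0351), without a count filter (0.00059), scaled by library totals (0.00295) and with a replicate block (0.0176), and in DESeq2 (0.0388). Without Ad-GFP replicate 4 its log2 fold change was 0.26, and without Ad-hHIF2 replicate 3 its adjusted p was 0.222 in edgeR.

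The separate enzymes of the later steps, Hadh, Acaa2 and Echs1, did not pass the test. Hadh, the short-chain hydroxyacyl-CoA dehydrogenase, was at 71.97, 78.5 and 69.0 CPM with Ad-GFP, 72.1, 68.6 and 65.9 CPM with Ad-hHIF2 and 82.3, 87.4 and 86.2 CPM with Ad-hHIF1. Acaa2, the mitochondrial thiolase, was at 24.2, 24.7 and 18.5 CPM, then 16.6, 18.6 and 20.1 CPM and then 26.1, 23.1 and 27.4 CPM. Their log2 fold changes with Ad-hHIF2 were -0.08 (adjusted p = 0.441 in edgeR) and -0.29 (0.111), and without Ad-GFP replicate 4 Acaa2 had -0.40 with an adjusted p of 0.0146, while without Ad-hHIF2 replicate 1 it had -0.20 and 0.351. Echs1, the enoyl-CoA hydratase, had 0.09 (adjusted p = 0.52).

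The 3 auxiliary enzymes, which handle unsaturated fatty acids, did not pass the test with Ad-hHIF2, with log2 fold changes of -0.09 for Eci1, -0.02 for Eci2 and -0.14 for Decr1. The peroxisomal thiolase Acaa1a had 0.27 (adjusted p = 0.132 in edgeR) and passed without Ad-GFP replicate 1 (0.0435), without a count filter (0.0168) and scaled by library totals (0.0195), while without Ad-GFP replicate 4 it had 0.17 and without Ad-hHIF2 replicate 3 an adjusted p of 0.357. Ehhadh, the peroxisomal bifunctional enzyme and a classical PPAR target, was low in every group, at 0.820, 1.52 and 1.40 CPM with Ad-GFP and 1.052, 1.65 and 1.16 CPM with Ad-hHIF2. Its 95% interval with Ad-hHIF2 ran from -0.75 to 0.88 on the log2 scale.

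The electron transfer flavoprotein takes electrons from the acyl-CoA dehydrogenases. Of Etfa and Etfb, its subunits, Etfa rose, and so did Etfdh, the separate oxidoreductase that accepts its electrons. Etfa was at 17.6, 15.5 and 14.8 CPM with Ad-GFP, 19.3, 20.4 and 24.9 CPM with Ad-hHIF2 and 20.8, 15.8 and 18.1 CPM with Ad-hHIF1. Etfdh, which passes electrons on to ubiquinone, was at 30.4, 33.2 and 36.4 CPM, then 41.3, 41.3 and 42.2 CPM and then 34.3, 38.4 and 33.7 CPM. The Ad-hHIF2 samples lay above all controls in both. The log2 fold changes were 0.43 ± 0.118 (adjusted p = 0.0254 in edgeR) and 0.33 ± 0.08 (0.0162), against 0.19 for Etfb (0.418). Etfa was lost without Ad-GFP replicate 3 or 4 or Ad-hHIF2 replicate 3 or 4 (adjusted p from 0.0504 to 0.0851), and Etfdh without Ad-GFP replicate 1 or 3 or Ad-hHIF2 replicate 3 (0.0532 to 0.0626).

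Of the PPAR receptors only Ppard passed the test. Ppard, the broadly expressed family member, was at 22.2, 21.3 and 16.8 CPM with Ad-GFP, 30.8, 29.9 and 35.4 CPM with Ad-hHIF2 and 25.5, 20.0 and 24.2 CPM with Ad-hHIF1. The Ad-hHIF2 samples lay above all others, with a log2 fold change of 0.67 ± 0.115, or 1.59-fold (adjusted p = 0.00312 in edgeR). Pparg, the receptor of adipocytes and colonocytes, was at 40.4, 42.8 and 48.6 CPM with Ad-GFP and at 40.4, 40.0 and 41.4 CPM with Ad-hHIF2, with a log2 fold change of -0.11 (adjusted p = 0.353). Ppara, the receptor that drives oxidation in liver, was at 0.547, 0.360 and 0.650 CPM with Ad-GFP, and its interval with Ad-hHIF2 ran from -0.98 to 1.14. Pparg made up 75.2% to 84.8% of the summed CPM per kilobase of the receptors with Ad-GFP and 64.3% to 68.4% with Ad-hHIF2, and Ppard 13.1% to 24.3% and 31.0% to 35.1%.

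Cd36, the fatty acid translocase of the cell surface, was counted only 5, 13 and 9 times with Ad-GFP, 2, 2 and 3 times with Ad-hHIF2 and 9, 5 and 15 times with Ad-hHIF1. It did not pass the count filter against Ad-GFP with Ad-hHIF2, so it was not tested there. In settings where it did pass the filter it passed only through the groups where it is high. Its calls there enter the counts of calls but are not read as a result. The ratio of Ad-hHIF2 to Ad-GFP at equal depth was 0.191, with a 95% exact counting interval from 0.0703 to 0.450 that covers counting error only.

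Markers of other cell types were read beside these changes. The 7 adipocyte markers summed to 8.20–10.4 CPM with Ad-GFP, 6.29–7.73 with Ad-hHIF2 and 8.87–10.5 with Ad-hHIF1. Almost all of this was Cidec, itself a droplet protein, and Adipoq and Plin1, which define adipocytes, were at or near 0. The 7 stem and crypt markers summed to 13.9–22.3 CPM with Ad-GFP and 8.73–10.5 with Ad-hHIF2, mostly Sox9 and Mki67, with Olfm4 at or near 0. Of the 4 stem and crypt markers tested, Sox9 and Mki67 lay below the controls in every Ad-hHIF2 sample and Lgr5 and Axin2 above. The 6 goblet, Paneth and enteroendocrine markers summed to 4.75–7.498 CPM with Ad-GFP, 1.51–2.04 with Ad-hHIF2 and 3.55–4.38 with Ad-hHIF1, mostly Muc2, with Defa24 at 0. The 11 enterocyte markers summed to 8.15–12.9 CPM with Ad-GFP and 11.999–13.9 with Ad-hHIF2, with Fabp1 and Sis at or near 0. The first 3 sums were lower in every Ad-hHIF2 sample than in any control and the enterocyte sums overlapped. Fibroblast markers (6) summed to 11.9–17.9 CPM with Ad-GFP and 9.53–12.7 with Ad-hHIF2. Immune markers (5) summed to 9.21–15.4 and 11.2–14.97 CPM, and endothelial markers (4) to 1.65–3.01 and 0.981–1.71 CPM. Each of these sums overlapped between the groups. All 5 tested fibroblast markers had a log2 fold change below 0 with Ad-hHIF2, and 0 passed the test. Of 2 tested immune markers 1 fell and 0 rose. The part of these cell types in the changes of the members was not tested. In bulk RNA fewer cells of a type cannot be told apart from less RNA per cell.

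With Ad-hHIF1, 0 of the 35 members passed the test in edgeR, as did 0% of the 15233 genes tested. At an unadjusted p below 0.05 there were 6 members (Acadl, Acadm, Hadh, Hadhb, Eci2 and Acsl4), and 8.59% of all genes. DESeq2 called 1 member (Acadm, 0.42, adjusted p = 0.0457), limma-voom called 0, and edgeR without a count filter called 2 (Acadm and Hadhb). The log2 fold change was above 0 in 29 of the 35 and its median was 0.13, against 0.00 over all genes. All Ad-hHIF1 samples lay above all controls in 9 members and below in 1 (Pparg), against 8.38% and 9.06% of all genes.

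The lowest p-values with Ad-hHIF1 were those of Acadl, Acadm, Eci2 and Hadh. The log2 fold change was 0.31 ± 0.0719 for Acadl (adjusted p = 0.486 in edgeR), 0.42 ± 0.121 for Acadm (0.491), 0.27 ± 0.0919 for Eci2 (0.517) and 0.22 ± 0.0759 for Hadh (0.517). For the 7 tested members that changed most with Ad-hHIF2, the 95% intervals with Ad-hHIF1 were -0.08 to 0.28 for Acsl5, -0.18 to 0.35 for Lipe, -0.05 to 0.37 for Plin3, -0.33 to 0.40 for Cpt2, -0.10 to 0.52 for Ppard, -0.66 to 0.66 for Dgat2 and -0.04 to 0.37 for Plin2. Leaving out Ad-hHIF1 replicate 3, which held the most satellite sequence, left the count at 0, with 10 members at an unadjusted p below 0.05. Such members numbered 3 without Ad-hHIF1 replicate 4 and 4 or 5 without any other sample.

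The 2 HIFs were then compared with each other, which tests the difference between them. With Ad-hHIF2, 6 members were higher than with Ad-hHIF1 (Cpt2, Acads, Acsl5, Ppard, Plin3 and Lipe). Hadh, Acaa2, Eci2, Plin2 and Pnpla2 were lower. The fit called 6 lower members, of which Cd36 is not read as a result, as given below. Of the 15556 genes tested 13.7% were higher and 12% lower. The difference in log2 level was 1.24 for Acsl5 (adjusted p = 1.44e-06 in edgeR), 0.78 for Lipe (0.000153), 0.65 for Cpt2 (0.00628), 0.55 for Plin3 (0.00118), 0.46 for Ppard (0.0216) and 0.37 for Acads (0.0431). On the lower side it was -0.79 for Plin2 (6.65e-05), -0.48 for Pnpla2 (0.0363), -0.47 for Acaa2 (0.0173), -0.31 for Hadh (0.0108) and -0.30 for Eci2 (0.0306). The samples of the 2 groups did not overlap in any of these 11 genes, and over all members 11 lay above and 8 below without overlap, against 22.7% and 19.1% of all genes. Cd36, with 7 counts over the Ad-hHIF2 samples and 29 over the Ad-hHIF1 samples, had a ratio of 0.185 with a counting interval from 0.0684 to 0.432. It entered this fit only through the groups where it is high, so its call is not read as a result. That call held in 1 of 8 alternatives that kept all samples. Acadl (0.05, adjusted p = 0.62), Acadm (-0.02, 0.918) and Hilpda (0.05, 0.706) were not separated between the HIFs, with 95% intervals of -0.09 to 0.18, -0.26 to 0.22 and -0.14 to 0.25.

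Several of these differences rested on single HIF libraries or on the fit. With only the 6 samples of the HIFs, Acads (0.0591) and Pnpla2 (0.0539) missed an adjusted p of 0.05 in edgeR, and with a replicate block Acads did (0.0596). Scaled by library totals, Hadh, Acaa2, Eci2 and Pnpla2 missed it (0.207 to 0.656), and of the members only Acsl5 passed on the TPM scales. Hadh was lost without Ad-hHIF2 replicate 4 (adjusted p = 0.0576 in edgeR) and Acaa2 without Ad-hHIF2 replicate 1 (0.0848) or Ad-hHIF1 replicate 4 (0.0601). Ppard was lost without Ad-hHIF2 replicate 1 or 4 or Ad-hHIF1 replicate 3 (0.0502 to 0.0849), Acads without any one of the 6 except Ad-hHIF1 replicate 1 (0.0562 to 0.169), Eci2 without Ad-hHIF2 replicate 1 or 3 or Ad-hHIF1 replicate 3 or 4 (0.0642 to 0.126) and Pnpla2 without Ad-hHIF2 replicate 3 or 4 or Ad-hHIF1 replicate 1 or 4 (0.0733 to 0.135). The call of Cd36, not read as a result, was lost without any one of the 6. Acsl5, Lipe, Cpt2, Plin3 and Plin2 passed with any one of the 6 HIF samples left out. The count of lower members was 3 without Ad-hHIF2 replicate 1 or 4 and 2 without Ad-hHIF1 replicate 4, and that of higher members was 4 to 6.

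Related genes were read from lists of the same pathways, in which no member is repeated, and their counts stand beside the 15.9% of all genes tested that rose and the 13.6% that fell with Ad-hHIF2. With Ad-hHIF2, 7 of 13 tested genes of the list of droplet proteins and lipolysis rose and 3 fell, with a median of 0.21. The 3 include Pnpla3, which passed the count filter only through the Ad-GFP samples, so its call is not read as a result. Cidea, which enlarges droplets, was at 1.61, 0.887 and 1.75 CPM with Ad-GFP, 7.93, 7.91 and 7.57 CPM with Ad-hHIF2 and 1.83, 1.36 and 2.02 CPM with Ad-hHIF1, a rise of 2.49 ± 0.238 on the log2 scale (adjusted p = 0.000145 in edgeR). Without Ad-hHIF2 replicate 3 the list had 4 that rose, and without Ad-hHIF2 replicate 1 it had 0 that fell. Pnpla3, counted 12, 17 and 7 times with Ad-GFP and 4, 5 and 2 times with Ad-hHIF2, had a ratio of 0.225 (counting interval 0.104 to 0.453). Its call in edgeR, not read as a result, also missed the threshold without Ad-GFP replicate 3 or any one of the Ad-hHIF2 samples (0.0779 to 0.0972).

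In the list of PPAR targets and coregulators, 2 of 17 tested rose and 9 fell with Ad-hHIF2, with a median of -0.36, where 13.6% of all genes fell. The 9 include Fgf21, whose call is not read as a result because it passed the count filter only through the Ad-GFP samples. The count that fell was 5 to 6 when any one sample was left out, 5 without a count filter, scaled by library totals or with a replicate block, and 1 on either TPM scale. Angptl4, a secreted lipase inhibitor that is both a PPAR and a HIF target, rose from 144, 143 and 159 CPM with Ad-GFP to 1211, 1274 and 1319 CPM with Ad-hHIF2, by 3.10 ± 0.0941 (adjusted p = 3.34e-07 in edgeR), and stood at 185, 167 and 189 CPM with Ad-hHIF1. Ppargc1a, the coactivator of mitochondrial and oxidative genes, was at 8.36, 7.59 and 6.998 CPM with Ad-GFP and at 3.13, 2.98 and 2.43 CPM with Ad-hHIF2, a fall of -1.42 ± 0.155 (adjusted p = 0.000295).

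On log2(TPM + 1) Ppargc1a had -0.15 (adjusted p = 0.0929 in limma).

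The other PPAR targets that fell at least 2-fold lay below the controls in every Ad-hHIF2 sample. Pdk4, which restrains pyruvate oxidation, changed by -1.13 (adjusted p = 0.00208 in edgeR), Acot2, a mitochondrial thioesterase with fractional counts in all 9 samples, by -1.03 (0.000372) and Txnip by -1.23 (2.84e-05). None of these 3 passed on a TPM scale in limma: on log2(TPM + 1) and log2(TPM + 0.1) Pdk4 had -0.09 and -0.41 (adjusted p 0.307 and 0.35), Acot2 had -0.33 and -0.53 (0.409 and 0.356) and Txnip had -0.55 and -0.90 (0.159 and 0.11). Ppargc1b changed by -1.49 (0.0446) and missed the threshold without any one of the 6 samples (0.058 to 0.136). That call held in 3 of 9 alternatives that kept all samples. On log2(TPM + 1) Ppargc1b had only -0.02 (adjusted p = 0.615 in limma). Fgf21, a fasting hormone, was counted 59, 30 and 17 times with Ad-GFP and 4, 2 and 1 times with Ad-hHIF2, a ratio of 0.0487 (counting interval 0.0191 to 0.104). Fgf21 and Pnpla3 passed the count filter only through the Ad-GFP samples, where they are high.

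In fatty acid uptake and binding, 5 of 13 tested rose and 1 fell. Lrp1, a lipoprotein receptor, was at 280, 261 and 240 CPM with Ad-GFP and 775, 747 and 712 CPM with Ad-hHIF2, a rise of 1.52 ± 0.0876 (adjusted p = 8.53e-06 in edgeR), and Fabp5, a fatty acid binding protein, rose by 1.48 (0.00596). Lpl, lipoprotein lipase, was at 19.8, 29.0 and 42.7 CPM with Ad-GFP, 2.58, 8.46 and 10.3 CPM with Ad-hHIF2 and 25.4, 98.1 and 12.02 CPM with Ad-hHIF1, a fall of -2.10 ± 0.448 (0.00886) in a gene that varied widely within each group. With all 9 samples in a single fit Lpl missed the threshold (adjusted p = 0.058 in edgeR).

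In peroxisomal oxidation and carnitine metabolism, 6 of 17 tested rose and 1 fell. Scp2, which holds a peroxisomal thiolase and a sterol carrier, was at 12.02, 12.6 and 5.95 CPM with Ad-GFP and 30.5, 36.3 and 30.5 CPM with Ad-hHIF2, a rise of 1.65 ± 0.227 (adjusted p = 0.00101 in edgeR). Acox2, the branched-chain acyl-CoA oxidase, was at 3.25, 3.27 and 6.15 CPM and at 0.777, 1.08 and 1.29 CPM, a fall of -1.99 ± 0.338 (0.00299). Without Ad-GFP replicate 4 the count that fell was 3. In ketone body synthesis 2 of 5 rose and 0 fell.

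In triglyceride synthesis and lipoprotein assembly, 3 of 17 tested rose and 5 fell, against 15.9% and 13.6% of all genes. The 3 include Apoa4, which passed the count filter only through the Ad-hHIF2 samples, where it is high. Its call is not read as a result. Apoa4, an apolipoprotein of chylomicrons, was counted 97, 143 and 76 times with Ad-hHIF2, against 0, 1 and 0 times with Ad-GFP and 0, 0 and 2 times with Ad-hHIF1, a ratio of Ad-hHIF2 to Ad-GFP of 233 with a counting interval from 41.5 to 9237. The count that fell was 2 without Ad-GFP replicate 1, with all 9 samples in a single fit or with a replicate block, 3 without a count filter or in DESeq2, and 0 scaled by library totals or on either TPM scale. Scaled by library totals 6 rose. Of 14 hypoxia reference genes, 4 rose and 4 fell with Ad-hHIF2, among them Egln3 (1.45, adjusted p = 5.09e-06 in edgeR), Ndrg1 (1.10, 2.99e-05) and Ankrd37 (2.32, 3.66e-05) on the one side and Ddit4 (-1.297, 3.64e-05) on the other. With Ad-hHIF1, 0 of the 93 genes of these lists that could be tested passed in edgeR and 15 had an unadjusted p below 0.05, against 8.59% of all genes. Without a count filter edgeR called Lpl higher (0.54, adjusted p = 0.000128). With the filter and 1 sample left out, Lpl did not pass. Its log2 fold change there ran from -0.70 without Ad-hHIF1 replicate 3 to 1.02 without Ad-hHIF1 replicate 4. DESeq2 called Angptl4 and the hypoxia reference genes Egln3, Pdk1, Ndrg1 and Ldha higher.

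**Figure D4:**
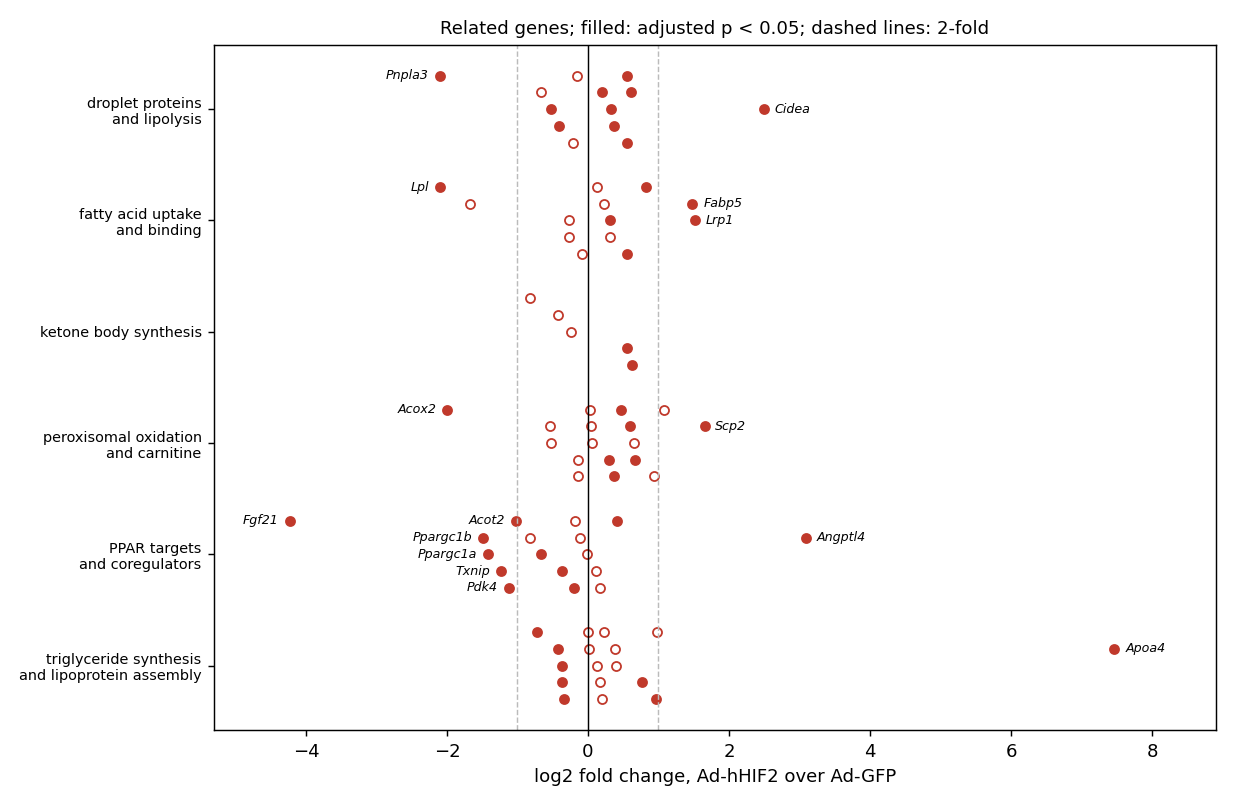
Log2 fold change of Ad-hHIF2 over Ad-GFP (x axis) for each tested gene of 6 related lists (rows, with points offset for sight), n = 3 per group. Filled points passed an adjusted p of 0.05 in edgeR, dashed lines mark 2-fold, and names are given for those past both. Angptl4 (3.10) and Cidea (2.49) lie far to the right and 6 of the PPAR targets lie past 2-fold on the left, and the positions of Apoa4, Fgf21 and Pnpla3 are fitted values that rest on few counts in one group.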

How the data were processed

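RNA sequencing covered 9 samples, 3 per group, grouped by the adenovirus in the labels. The authors removed low-quality reads and estimated expected counts with RSEM, and the deposited expected counts are not normalized. The deposited TPM were computed by the authors with RSEM from the same reads and were used only in alternatives. The aligner, genome build, annotation and strandedness are not given in the sources used here. In all, 85.7% of the expected counts were whole.

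Expected counts were rounded, filtered with filterByExpr, scaled by TMM and tested by quasi-likelihood in edgeR (version 4.0.16, with limma 3.58.1 under R 4.3.3). The p-values were adjusted by Benjamini-Hochberg over all genes tested. The study's own tool, EBSeq, was not used. Each HIF was compared with Ad-GFP on its own 6 samples, and the HIFs with each other on all 9. Standard errors come from the quasi-likelihood F statistic and intervals are 95%. With 3 samples per group an exact two-sided permutation test cannot go below 0.10. Levels between genes use CPM per kilobase of effective length. A counting interval covers sampling of reads only. The script was tested on simulated data.

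Members and lists were chosen with earlier results of these data known. The genes named are all members, the genes of the lists past an adjusted p of 0.05 and 2-fold, and Epas1 and Hif1a. Markers of cell types are named as well, and so are Pdk1 and Ldha, which DESeq2 called with Ad-hHIF1. Promoters are from RefSeq (GRCm38.p6), and strand was checked against GENCODE M21 transcripts. Alternatives were other count filters, size factors, library totals, DESeq2 1.42.0, voom weights, TPM on a log2 scale with pseudocounts of 1 and 0.1 (limma), other sets of samples, a replicate block and each sample left out. No pair of replicates within a group was a duplicate: the chi-square per degree of freedom between them ran from 25.8 to 475. Pairs across groups were not compared in this way. Columns of the deposited tables other than these were not used. The result of a single gene of the related lists is not reported here.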

Additional observations from a re-analysis of the deposited data

How the results depend on the processing

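With Ad-hHIF2 against Ad-GFP, the members that rose (14) and fell (2) numbered 17 and 0 with library totals only, 2 and 0 on log2(TPM + 1), and 4 and 0 on log2(TPM + 0.1). The genes past the threshold (4416) numbered 1010 and 1109 on these TPM scales. Library totals gave 3491 higher and 828 lower genes and log2(TPM + 1) 814 and 196, against 2381 and 2035 with TMM, and moved the median of all genes by 0.26 and 0.14. On log2(TPM + 0.1) the split was 899 and 210 and the median moved by 0.31. With 1 sample left out, the members that rose numbered 8 to 13, those that fell 2 to 4, and all genes past the threshold 3074 to 4539.

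With Ad-hHIF1 against Ad-GFP, the members that rose (0) numbered 2 without a count filter and 1 with DESeq2, and the genes past the threshold (0) numbered 384 without a count filter, 144 with DESeq2, 5 with limma-voom and 7 with all 9 samples in a single fit. With 1 sample left out all counts were 0.

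Between the HIFs, the lower members (6 with Cd36) numbered 1 with library totals. Higher and lower members numbered 1 and 0 on both TPM scales, where 367 and 460 of the genes passed (4008). The higher and lower genes (2137 and 1871) numbered 2096 and 804 with library totals and 315 and 52, or 381 and 79, on the TPM scales. With 1 sample left out the higher members numbered 4 to 6, the lower 2 to 6 and all genes 2594 to 3624. Eci2 reversed to 0.0696 on log2(TPM + 1) and 0.0836 on log2(TPM + 0.1), and the cause was not tested. Of 1659 values of members under the alternatives, 108 changed sign without being past the threshold in either fit.

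Whether the replicate numbers pair the samples is not given by the labels, and correlations of deviations from the group mean did not settle it. For Ad-hHIF2 with Ad-GFP, same-numbered samples had 0.09, 0.09 and 0.21, and other pairs ran from -0.21 to 0.13. For Ad-hHIF1 with Ad-GFP they had 0.15, 0.06 and -0.13, against -0.30 to 0.27 in other pairs. Between the HIFs they had -0.09, -0.11 and -0.25, against -0.12 to 0.23. With a replicate block 15 members rose and 3 fell with Ad-hHIF2, 0 and 0 with Ad-hHIF1, and 5 were higher and 5 lower between the HIFs. Depth limits Cd36 and Ppara, which had at most 15 and 26 counts in a sample. Counts of called genes in the related lists moved by more than 1.5 times in 33 cases with Ad-hHIF2 against Ad-GFP, 4 with Ad-hHIF1 and 38 between the HIFs, under alternatives other than leaving out a sample.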
